A study of Homo sapiens with 4 samples.

Results

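Serine, glycine and folate one-carbon metabolism was followed through 10 enzyme genes in NUGC3, an established human stomach cancer cell line, by RNA sequencing. The 10 genes (PHGDH, PSAT1, PSPH, SHMT1, SHMT2, MTHFD1, MTHFD2, MTHFD1L, ALDH1L2 and MAT2A) were taken by symbol, and each matched 1 of 53777 Ensembl gene rows. The series holds 4 libraries, 2 of NUGC3 cells with a knockdown of the transcription factor MYC and 2 of wild-type NUGC3 cells. How MYC was knocked down, and whether the knockdown cells were a pool or 1 clone, is not stated in the sources available here. The deposited values were read as FPKM, fragments per kilobase of transcript scaled by library size, a unit inferred from the values; by either FPKM or TPM, levels can be compared between genes within a library.

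Cells make serine from the glycolytic intermediate 3-phosphoglycerate through PHGDH, PSAT1 and PSPH, and the SHMT enzymes then split serine into glycine and a carbon unit carried by folate. Mitochondria process that unit through SHMT2, MTHFD2 and MTHFD1L and release it as formate, and the cytosol uses it through MTHFD1 and SHMT1 for purines, thymidylate and methionine. MAT2A makes S-adenosylmethionine, the methyl donor of the methionine cycle. MYC and ATF4, the transcription factor of the amino acid response, are known inducers of several of these genes.

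The promoter windows of 4 enzyme genes that were lower in the knockdown are shown because they hold letters of motifs that MYC or ATF4 can bind. They come from RefSeq on GRCh38.p14, run from 250 bases before to 50 bases after an annotated start, and are read 5′ to 3′ on the plus strand. Capitals mark the matches to 3 motifs. The first is CACGTG, the E-box that MYC binds together with its partner protein MAX and that reads alike on either strand. Some promoters carry a variant E-box instead, in which 1 letter of that palindrome differs, searched as CACGCG and shown here in MTHFD2 as its reverse complement because it lies on the other strand. The last is the core of the ATF4 response element, TGATGNAAN. Both strands were searched, and no 2 matches overlap. The windows are chr9:78296875-78297174 (PSAT1), chr2:74198365-74198664 (MTHFD2), chr6:150866083-150866382 (MTHFD1L, the first of 4) and chr14:64388103-64388402 (MTHFD1).
PSAT1: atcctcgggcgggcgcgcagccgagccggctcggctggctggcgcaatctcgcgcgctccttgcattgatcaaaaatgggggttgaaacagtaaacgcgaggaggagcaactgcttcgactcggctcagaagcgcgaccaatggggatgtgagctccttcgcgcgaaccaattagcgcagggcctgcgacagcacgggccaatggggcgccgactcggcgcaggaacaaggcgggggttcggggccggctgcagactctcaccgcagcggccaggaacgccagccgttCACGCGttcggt
MTHFD2: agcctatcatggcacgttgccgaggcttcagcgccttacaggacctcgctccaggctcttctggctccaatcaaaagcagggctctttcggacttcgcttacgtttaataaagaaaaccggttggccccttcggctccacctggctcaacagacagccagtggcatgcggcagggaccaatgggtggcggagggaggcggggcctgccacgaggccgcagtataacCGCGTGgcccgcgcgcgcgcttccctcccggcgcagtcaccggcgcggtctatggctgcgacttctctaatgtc
MTHFD1L: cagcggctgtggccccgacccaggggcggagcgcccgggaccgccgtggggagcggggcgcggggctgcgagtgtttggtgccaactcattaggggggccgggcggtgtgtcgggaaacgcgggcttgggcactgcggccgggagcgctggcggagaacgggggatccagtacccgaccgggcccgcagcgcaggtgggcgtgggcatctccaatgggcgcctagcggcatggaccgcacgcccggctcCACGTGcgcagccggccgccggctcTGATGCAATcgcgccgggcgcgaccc
MTHFD1: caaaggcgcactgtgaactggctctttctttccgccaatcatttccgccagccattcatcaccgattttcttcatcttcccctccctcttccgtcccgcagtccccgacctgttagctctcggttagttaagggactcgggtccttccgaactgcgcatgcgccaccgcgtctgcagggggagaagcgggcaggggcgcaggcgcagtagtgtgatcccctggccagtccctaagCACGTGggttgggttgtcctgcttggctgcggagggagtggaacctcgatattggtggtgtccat

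Of the 10 enzyme genes, 7 had a window. MTHFD1L held an E-box at positions 150866332 to 150866337 of chromosome 6 and an ATF4 core at 150866357 to 150866365, and the same letters lay in 3 of its 4 windows. MTHFD1 held an E-box at 64388338 to 64388343 of chromosome 14. PSAT1 and MTHFD2 each held 1 variant E-box, and the windows of PHGDH, SHMT1 and MAT2A held none of these letters. Among all 35116 windows in the table, 7.26% held the E-box, 11.4% the variant and 3.61% the ATF4 core. These shares are per window and cover windows of any base composition, while the windows shown were 59.7% to 76% G and C. Shares among windows of like composition are not given here. These matches describe letters in a window, and binding was not measured.

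The deposited FPKM summed to 674328 to 739335 per library. Steps in the low values put the other 3 libraries at 71.7% to 77.1% of the depth of wild type replicate 1, and no counting error can be given in FPKM. Epithelial markers (EPCAM, KRT8, KRT18, KRT19, CDH1) were at 54.2 FPKM or more in every library, while all 6 gastric markers, among them CLDN18 and TFF1, stayed below 1 FPKM in every library. PTPRC, VWF, COL1A2, COL3A1 and DCN, markers of blood, endothelial and fibroblast cells, were listed at 0 in all 4 libraries, while CD68 stood at 12.4 to 22.3 FPKM and COL1A1 at 2.98 to 8.12 FPKM. MYC, the targeted gene, stood at 65.0 and 75.8 FPKM in MYC knockdown cells and 82.9 and 82.0 FPKM in wild-type cells, a log2 difference of −0.23 with a standard error of 0.10 (limma adjusted p = 0.237). MYC RNA was thus only slightly lower in the libraries labelled MYC knockdown, with log2 differences of −0.12 without replicate 1 (limma adjusted p = 0.115), −0.34 without replicate 2 (limma adjusted p = 0.021) and −0.13 with equal FPKM sums per library (limma adjusted p = 0.475). MYC knockdown replicate 1 stood apart by 6 interferon response genes, which summed to 968.4 FPKM there, against 86.9 FPKM in MYC knockdown replicate 2 and 83.4 and 75.1 FPKM in wild type. The knockdown libraries also differed more widely. Over 12953 genes their median absolute log2 difference was 0.201, against 0.0758 between the wild-type libraries. Between a knockdown and a wild-type library it was 0.235 to 0.244. Limma fitted 1 variance per gene for both groups. Each enzyme gene is therefore given for both knockdown libraries, and the part of the interferon difference in its values was not tested. The labels do not say whether replicates were separate cultures, and every p-value here measures no more than the spread among these 4 libraries, which may be technical.

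**Figure D1:**
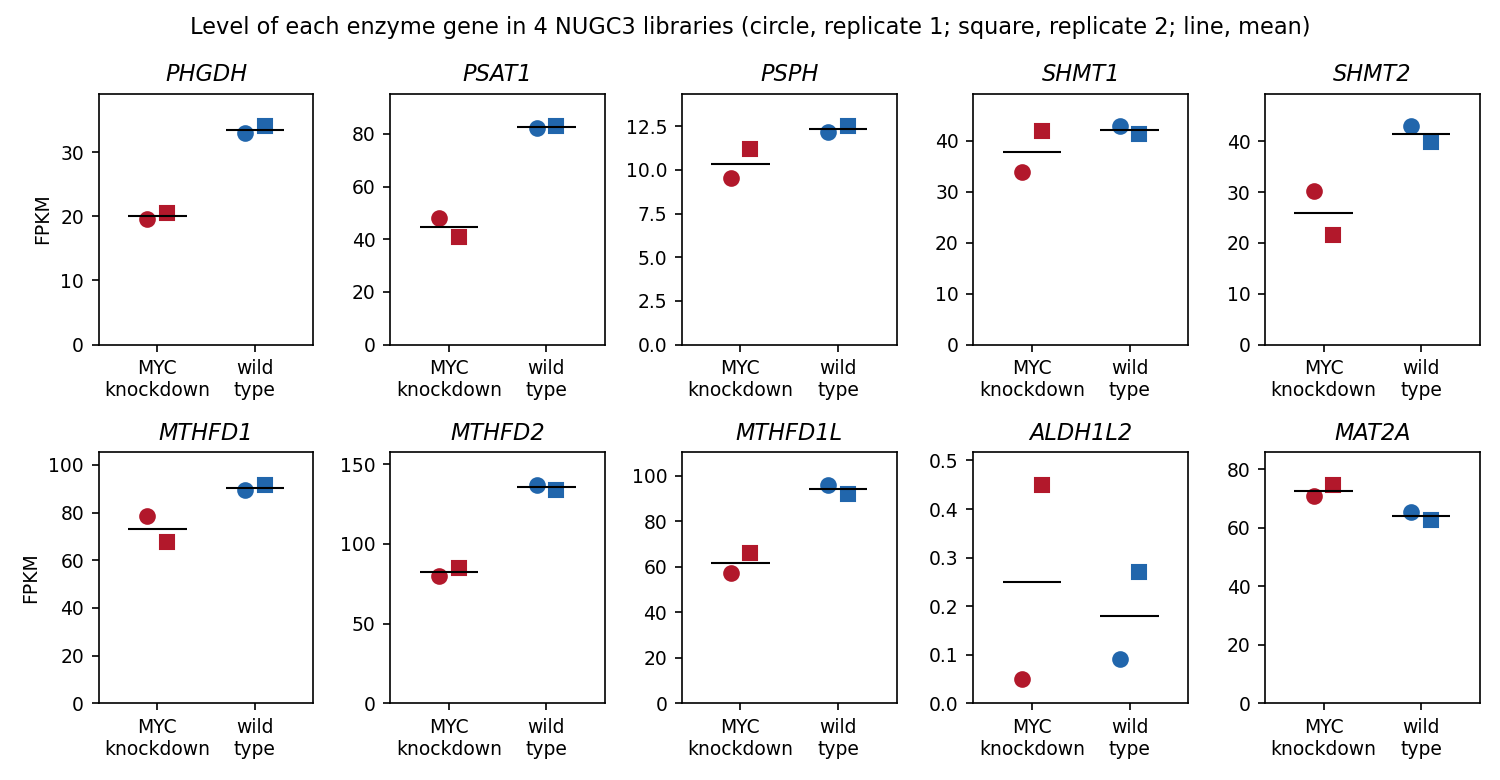
FPKM of each of the 10 enzyme genes (vertical axis from 0, its own scale per gene) in the MYC knockdown libraries (red) and the wild-type libraries (blue), with circles for replicate 1, squares for replicate 2 and lines for means of 2. Both knockdown points lie below both wild-type points for 7 genes and above them for MAT2A.

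Of the 10 enzyme genes, 7 were lower in the knockdown libraries without overlap, MAT2A was higher, and SHMT1 and ALDH1L2 overlapped. ALDH1L2 was below 1 FPKM in every library and was not tested. The other 9 genes were above 1 FPKM in all 4 libraries and were tested with limma on log2(FPKM + 1) among 12953 genes. The groups did not overlap for 8 of the 9 (58.6% of all genes tested), with the MYC knockdown lower for 7 (25.2% of all genes) and higher for 1 (33.4% of all genes). The median log2 difference over the 9 was −0.60, against 0.04 over all genes tested. The 10 genes were chosen with earlier results of these data known, so every comparison with all genes here is a description only. No gene of the 9 passed a limma adjusted p of 0.05, and 0 of the 12953 genes did (0%). The smallest limma adjusted p was 0.0556, a value that 147 genes shared. At an unadjusted p under 0.05, limma had 6 of the 9 lower and 0 higher, where 25.9% of all genes passed, 11.5% lower and 14.4% higher. At an adjusted p under 0.10, 4 of the 9 were called, all lower (PHGDH, PSAT1, MTHFD2 and MTHFD1L), where limma called 10.4% of all genes, 4.91% lower and 5.5% higher. That background of 713 genes higher and 636 lower moved with the scaling, to 1643 higher and 587 lower with equal FPKM sums per library, 715 higher and 945 lower with median of ratios, and 552 higher and 654 lower with quantile normalization. Single libraries moved these limma calls: at an adjusted p under 0.10, 7 of the 9 were called without MYC knockdown replicate 1, where 5304 of the 12953 genes were, and 8 without replicate 2, where 5359 genes were. At 0.05 the counts were 6 without MYC knockdown replicate 1, beside 3384 of all genes, and 8 without replicate 2, beside 3413. Without either wild-type replicate, 0 of the 9 were called at 0.05 or 0.10, and at most 1 of all genes was. Without MYC knockdown replicate 1, which carried the interferon genes, the median log2 difference over the 9 was −0.50, and without replicate 2 it was −0.44. In bulk RNA, fewer cells that express a gene and less RNA per cell cannot be told apart.

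The serine synthesis enzymes were lower by unequal amounts. PSAT1 (ENSG00000135069; chromosome 9, 78297143 to 78330093, GENCODE release 29 on GRCh38), the aminotransferase of the second step, stood at 48.2 and 40.8 FPKM in MYC knockdown replicates 1 and 2 and at 82.0 and 82.9 FPKM in wild-type cells. Both MYC knockdown values were lower, with a mean of 44.5 ± 5.30 FPKM in MYC knockdown and 82.5 ± 0.587 FPKM in wild type (SD, n = 2 each), or 54.0% of wild type. Its log2 difference of −0.88, with a standard error of 0.11, was the most negative of the 9, and 1.71% of all genes tested had a lower one (limma adjusted p = 0.0556).

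PHGDH (ENSG00000092621; chromosome 1, 119648411 to 119744226), the dehydrogenase that commits 3-phosphoglycerate to serine, stood at 19.5 and 20.6 FPKM in MYC knockdown cells and at 33.0 and 34.03 FPKM in wild-type cells. The groups did not overlap, with means of 20.0 ± 0.742 FPKM in the knockdown and 33.5 ± 0.721 FPKM in wild type (SD, n = 2 each). The log2 difference was −0.71 with a standard error of 0.08 (limma adjusted p = 0.0556). PSPH (ENSG00000146733; chromosome 7, 56011051 to 56051604), the phosphatase of the last step, stood at 9.52 and 11.2 FPKM in MYC knockdown cells and at 12.2 and 12.5 FPKM in wild type. The groups did not overlap as deposited but did once libraries were scaled to the same FPKM sum. Its log2 difference of −0.24 did not pass (limma adjusted p = 0.281), and came to −0.34 in MYC knockdown replicate 1 and −0.13 in replicate 2. PSAT1 was 2.47 and 1.98 times the level of PHGDH in the knockdown libraries and 2.49 and 2.44 times in the wild-type libraries, so this ratio overlapped between groups.

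Of the 4 mitochondrial folate enzymes, 3 were lower without overlap, where 25.2% of all genes tested were, and ALDH1L2 overlapped. MTHFD2 (ENSG00000065911; chromosome 2, 74198562 to 74217565), the dehydrogenase and cyclohydrolase of the mitochondrial arm, had the highest level of the 10 in every library. It stood at 79.8 and 85.1 FPKM in MYC knockdown cells and at 137.2 and 134.0 FPKM in wild-type cells. Every knockdown value was thus well below every wild-type value, with means of 82.4 ± 3.79 FPKM in the knockdown and 135.6 ± 2.24 FPKM in wild type (SD, n = 2 each). The log2 difference was −0.71 with a standard error of 0.08, and the 2 knockdown libraries lay at −0.76 and −0.67 (limma adjusted p = 0.0556).

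MTHFD1L (ENSG00000120254; chromosome 6, 150865549 to 151101887), the synthetase that releases formate in mitochondria, stood at 57.3 and 66.1 FPKM in MYC knockdown cells and at 96.1 and 92.0 FPKM in wild-type cells. The groups did not overlap, and the log2 difference was −0.60 with a standard error of 0.10 (limma adjusted p = 0.0629). SHMT2 (ENSG00000182199; chromosome 12, 57229327 to 57234935), the mitochondrial serine hydroxymethyltransferase, stood at 30.3 and 21.6 FPKM in MYC knockdown cells and at 43.0 and 39.9 FPKM in wild type. Here the knockdown libraries disagreed in size, with log2 differences of −0.44 in replicate 1 and −0.91 in replicate 2. The fitted difference of −0.67 had a standard error of 0.18 and was not called at 0.10 (limma adjusted p = 0.111).

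ALDH1L2 (ENSG00000136010; chromosome 12, 105019784 to 105084577), which oxidises formyl-folate in mitochondria, was close to absent at 0.05 and 0.45 FPKM in MYC knockdown cells and 0.09 and 0.27 FPKM in wild type. These values overlapped and are too low to give a fold. Part of its exons overlaps C12orf45 on the other strand, which stood at 4.16 to 7.16 FPKM, and no label states whether the libraries were stranded.

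The cytosolic folate enzymes differed less. MTHFD1 (ENSG00000100714; chromosome 14, 64388031 to 64463457), the cytosolic enzyme with the dehydrogenase, cyclohydrolase and synthetase activities, stood at 78.4 and 67.9 FPKM in MYC knockdown cells and at 89.4 and 91.7 FPKM in wild-type cells. Its groups did not overlap, with a log2 difference of −0.31 and a standard error of 0.10 (limma adjusted p = 0.147), −0.21 in MYC knockdown replicate 1 and −0.41 in replicate 2. SHMT1 (ENSG00000176974; chromosome 17, 18327860 to 18363563), the cytosolic serine hydroxymethyltransferase, stood at 33.9 and 41.8 FPKM in MYC knockdown cells and at 42.8 and 41.3 FPKM in wild type. Only MYC knockdown replicate 1 was low, at a log2 difference of −0.30 against −0.01 in replicate 2, and the groups overlapped (limma adjusted p = 0.474).

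MAT2A (ENSG00000168906; chromosome 2, 85539165 to 85545280) stood at 70.8 and 74.7 FPKM in MYC knockdown cells and at 65.5 and 62.8 FPKM in wild-type cells. Both knockdown values were above both wild-type values, by a log2 difference of 0.18 with a standard error of 0.08 that did not pass (limma adjusted p = 0.235). Its exons overlap GGCX on the other strand by 558 bases, and GGCX stood at 12.7 and 13.3 FPKM in MYC knockdown cells and 12.1 and 9.86 FPKM in wild type. The part of that overlap in the MAT2A values was not tested.

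**Figure D2:**
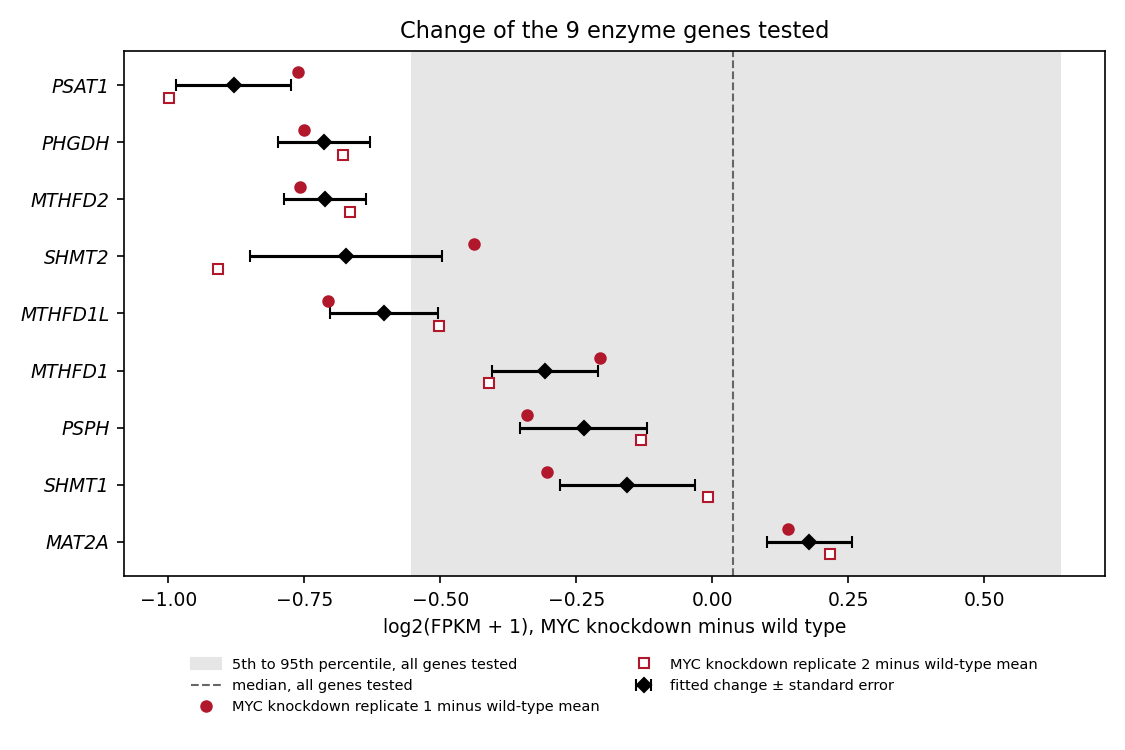
Log2 difference of log2(FPKM + 1), MYC knockdown minus wild type (horizontal axis), for the 9 enzyme genes tested, with fitted values and standard errors in black, each knockdown library in red, the median of all 12953 genes as a dashed line and their 5th to 95th percentile (−0.55 to 0.64) in grey. PSAT1, PHGDH, MTHFD2, SHMT2 and MTHFD1L lie below the grey band, and the 2 knockdown libraries are farthest apart for SHMT2.

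The mitochondrial arm was lower relative to the cytosolic arm in both knockdown libraries. Summed FPKM of SHMT2, MTHFD2, MTHFD1L and ALDH1L2 was 167.4 and 173.2 in the knockdown libraries and 276.3 and 266.2 in wild type, which left the knockdown at 62.8% of wild type. The cytosolic sum of SHMT1 and MTHFD1 was 112.2 and 109.7 FPKM in MYC knockdown cells and 132.2 and 133.0 FPKM in wild type, at 83.7% of wild type. Serine synthesis (PHGDH, PSAT1 and PSPH) summed to 77.3 and 72.5 FPKM in MYC knockdown cells and 127.2 and 129.4 FPKM in wild type, at 58.4% of wild type.

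The ratio of the mitochondrial to the cytosolic sum was 1.49 and 1.58 in the knockdown libraries and 2.09 and 2.002 in wild type, with means of 1.54 ± 0.0625 and 2.05 ± 0.0627 (SD, n = 2 each). A two-sided exact permutation test gave p = 0.333 for this ratio and for each of the 3 sums, the smallest p that 2 libraries against 2 allow, so the design cannot place them past 0.05 (0.375 adjusted over the 9 sums and ratios computed). By isozyme, the SHMT2 to SHMT1 ratio was 0.895 and 0.517 in the knockdown libraries and 1.004 and 0.967 in wild type. The MTHFD2 to MTHFD1 ratio was 1.02 and 1.25 in the knockdown libraries and 1.54 and 1.46 in wild type. MTHFD1L to MTHFD1 came to 0.731 and 0.974 in the knockdown libraries and 1.08 and 1.003 in wild type. None of these 3 ratios overlapped between groups (exact permutation p = 0.333 each), though MTHFD1L to MTHFD1 in MYC knockdown replicate 2 came close to wild type. Within the mitochondrial arm, MTHFD2 to MTHFD1L was 1.39 and 1.29 in the knockdown libraries and 1.43 and 1.46 in wild type.

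**Figure D3:**
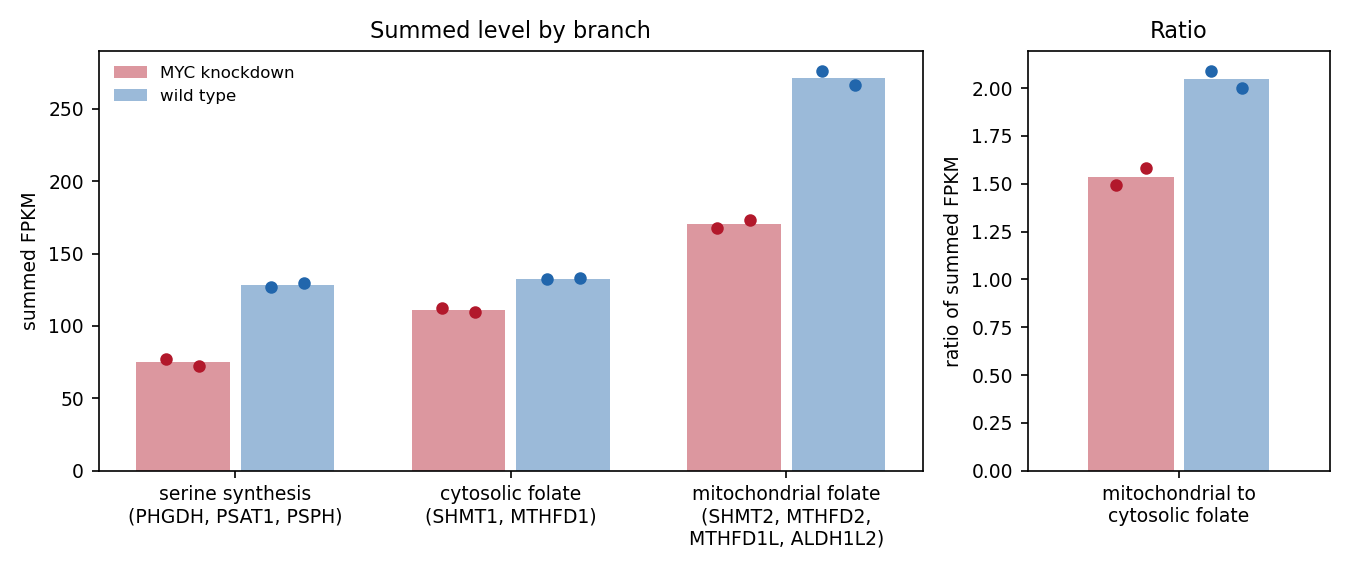
Summed FPKM by branch (left, vertical axis) and the ratio of the mitochondrial to the cytosolic folate sum (right, vertical axis) in MYC knockdown (red) and wild-type (blue) libraries, with bars for means of 2 and points for single libraries. Knockdown points lie below wild-type points in every branch, and the ratio is 1.49 and 1.58 in the knockdown against 2.09 and 2.002 in wild type.

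The order of levels also differed between the groups. In the knockdown libraries MTHFD2 was followed by MTHFD1 and MAT2A, whose values overlapped, then by MTHFD1L, by PSAT1 and SHMT1, which overlapped, and by SHMT2, PHGDH, PSPH and ALDH1L2. In the wild-type libraries MTHFD2 was followed by MTHFD1L, MTHFD1, PSAT1, MAT2A, then SHMT1 and SHMT2, which overlapped, and PHGDH, PSPH and ALDH1L2. MTHFD1L and MTHFD1 lay close in wild type replicate 2, at 91.98 and 91.68 FPKM. They also did in MYC knockdown replicate 2, at 66.07 and 67.86 FPKM, so their change of order is slight there. MAT2A held 16.5% and 17.4% of the summed FPKM of the 10 genes in the knockdown libraries and 10.9% and 10.6% in wild type. That sum was 427.7 and 430.1 FPKM in MYC knockdown cells and 601.2 and 591.4 FPKM in wild type.

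Genes around the 10 enzymes did not share 1 direction. Of 71 other genes in 7 lists, 54 were tested. Without overlap, 24 were lower, the targeted gene MYC among them, and 14 higher, where 25.2% of all genes tested were lower and 33.4% higher. Limma called 0 of the 54 at an adjusted p of 0.05, where it called 0% of all genes. At 0.10 it called 9, 6 lower and 3 higher, where 10.4% of all genes were called, 4.91% lower and 5.5% higher. Equal FPKM sums per library raised the median log2 difference of all genes tested from 0.04 to 0.12. List counts and medians given below for that scaling include this rise. The share of all genes without overlap under that scaling is not given here.

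Among 12 genes of serine use and uptake, 9 were tested, 2 lower and 4 higher without overlap, at a median log2 difference of 0.09, which ranged between 0.011 with quantile normalization and 0.16 with equal FPKM sums per library. SLC1A5, a transporter of glutamine, serine and other neutral amino acids, stood at 30.0 and 29.1 FPKM in MYC knockdown cells and 59.4 and 63.3 FPKM in wild type (log2 difference −1.03, limma adjusted p = 0.0556). SFXN1, the mitochondrial serine carrier, was at 39.8 and 35.4 FPKM in MYC knockdown cells against 46.1 and 43.3 FPKM in wild type (limma adjusted p = 0.206). SDSL, related to the serine dehydratase that breaks serine down, was at 11.7 and 9.75 FPKM in MYC knockdown cells against 4.31 and 5.89 FPKM in wild type (limma adjusted p = 0.0741). SPTLC1, a subunit of the enzyme that joins serine to a fatty acid for sphingolipids, was at 47.7 and 47.4 FPKM in MYC knockdown cells against 37.2 and 38.1 FPKM in wild type (limma adjusted p = 0.0938).

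In the list of glycine cleavage and use, 6 of 12 genes were tested, 3 lower and 0 higher without overlap, at a median of −0.12, and 2 lower and 1 higher at −0.025 with equal FPKM sums per library. GLDC, the decarboxylase of the glycine cleavage system, stood at 4.43 and 4.83 FPKM in MYC knockdown cells and 7.76 and 7.62 FPKM in wild type (log2 difference −0.63, limma adjusted p = 0.0712). GCSH, the lipoyl carrier protein of the same complex, stood at 30.6 and 34.1 FPKM in MYC knockdown cells and 49.0 and 46.5 FPKM in wild type (log2 difference −0.55, limma adjusted p = 0.0652). The groups overlapped for its other subunits, AMT and DLD.

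Other folate enzymes were mixed, with 12 of 14 tested, 4 lower and 7 higher without overlap, at a median of 0.21. With equal FPKM sums per library it held 1 lower and 8 higher at a median of 0.29, and with quantile normalization 3 lower and 4 higher at a median of 0.14. GART, which uses formyl-folate in purine synthesis, stood at 57.1 and 60.5 FPKM in MYC knockdown cells and 86.5 and 89.7 FPKM in wild type (log2 difference −0.58, limma adjusted p = 0.0566). MTHFS, which returns 5-formyl-folate to the pool, stood at 23.6 and 22.1 FPKM in MYC knockdown cells and 16.9 and 16.2 FPKM in wild type (log2 difference 0.44, limma adjusted p = 0.0837). MTHFD2L, the paralog of MTHFD2, stood at 12.2 and 13.7 FPKM in MYC knockdown cells against 10.7 and 10.6 FPKM in wild type, a log2 difference of 0.26 that did not pass (limma adjusted p = 0.220). MTHFD2 and MTHFD2L thus lay on opposite sides of wild type in both knockdown libraries, and the difference between them was not tested.

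Of 7 genes of folate uptake and retention, 5 were tested, 3 lower and 1 higher without overlap, at a median of −0.09. SLC19A1, the reduced folate carrier, stood at 9.53 and 7.31 FPKM in MYC knockdown cells and 12.7 and 13.6 FPKM in wild type (log2 difference −0.60, limma adjusted p = 0.106). In the methionine cycle and transsulfuration, 12 of 16 genes were tested, 6 lower and 1 higher without overlap, at a median of −0.10. Equal FPKM sums per library brought these medians to −0.0076 for uptake and retention, with 2 lower and 2 higher, and to −0.0029 for the methionine cycle, with 6 lower and 3 higher. CTH, which makes cysteine from cystathionine, stood at 4.06 and 2.90 FPKM in MYC knockdown cells and 5.78 and 6.48 FPKM in wild type (log2 difference −0.68, limma adjusted p = 0.111). CBS, the enzyme before it, was at 0.03 FPKM or less in every library. MAT2B, the regulatory partner of MAT2A, was the 1 higher gene of that list, at 39.3 and 34.6 FPKM in MYC knockdown cells and 30.8 and 32.7 FPKM in wild type (limma adjusted p = 0.268).

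A list of 8 genes drawn up as regulators of these enzymes held MYC but also TRIB3, which ATF4 induces. Of the 8, 5 were lower, the targeted gene MYC among them, and 1 higher without overlap, at a median of −0.22. With equal FPKM sums per library, 4 were lower and 2 higher at a median of −0.13. ATF4 stood at 186.8 and 171.8 FPKM in MYC knockdown cells and 279.4 and 270.2 FPKM in wild type (log2 difference −0.61, limma adjusted p = 0.0566). TRIB3, a pseudokinase that ATF4 induces, stood at 16.8 and 20.3 FPKM in MYC knockdown cells and 39.1 and 41.4 FPKM in wild type (log2 difference −1.08, limma adjusted p = 0.0556). ATF3, a stress-induced factor, went the other way at 35.4 and 19.1 FPKM in MYC knockdown cells against 14.8 and 15.4 FPKM in wild type (limma adjusted p = 0.202). Of 3 regulators of MAT2A RNA, 1 was lower without overlap, at a median of −0.12, and none was with equal FPKM sums per library (median −0.025). METTL16, which methylates MAT2A RNA, overlapped at 10.1 and 8.29 FPKM in MYC knockdown cells and 10.6 and 8.69 FPKM in wild type.

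**Figure D4:**
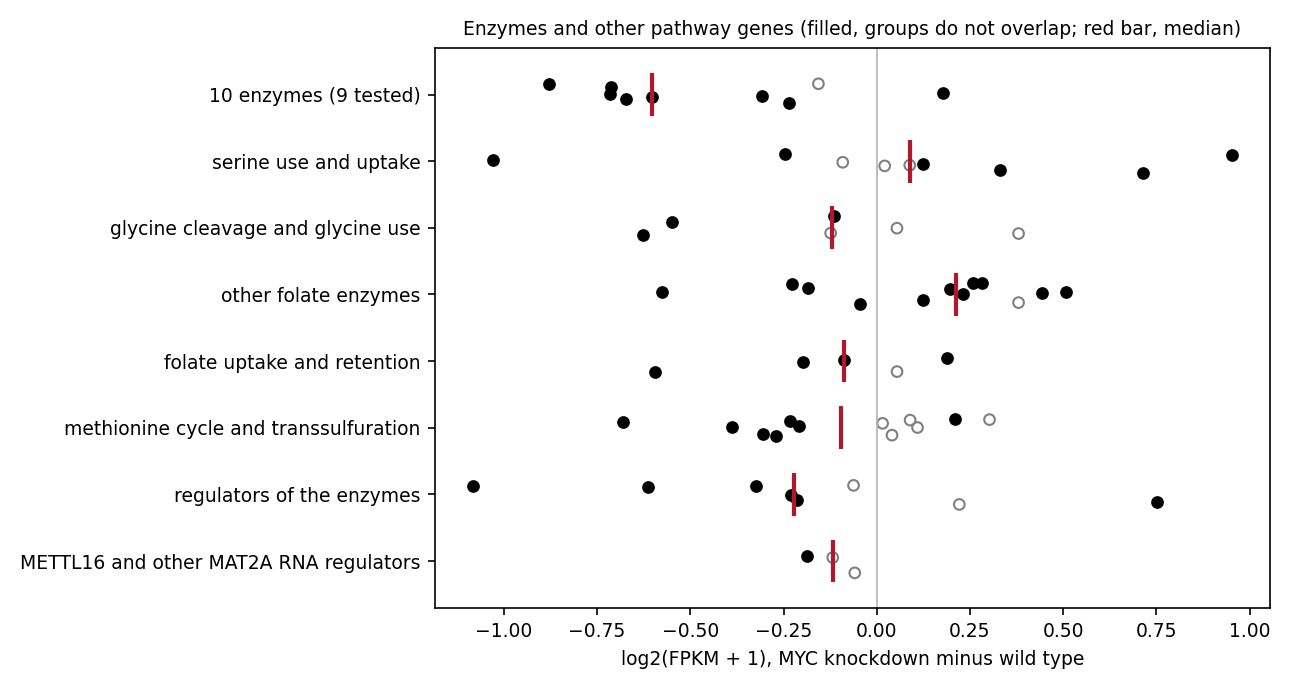
Log2 difference of log2(FPKM + 1), MYC knockdown minus wild type (horizontal axis), for the enzyme genes tested and for each list of other genes, with 1 point a gene, filled where the groups do not overlap, and a red bar at the median. The enzymes have a median of −0.60, and the lists of other genes have medians between −0.22 and 0.21.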

How the data were processed

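RNA was measured in 4 libraries, 2 of MYC knockdown and 2 of wild-type NUGC3 cells, grouped by sample title. Cells were lysed in Trizol for total RNA, per the labels' protocols. STAR and RSEM were used, per the submitters' processing notes, and their versions, the genome build and the strandedness are not stated in the sources available here. The authors deposited 1 value per gene and library, read here as FPKM because the columns sum to different totals, which TPM would not, though TPM with rows left out cannot be told apart from it. FPKM keeps no depth; relative depth came from steps in the low values of single-transcript genes (400 to 1500 bases long).

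Of 344810 rows, the 53777 Ensembl rows were used. The 12953 genes reaching 1 FPKM in 2 or more libraries entered the test on log2(FPKM + 1), which understates changes of low genes, with limma 3.58.1 in R 4.3.3 (lmFit, eBayes with a mean trend), two-sided, with Benjamini-Hochberg adjustment over all of them and a threshold of 0.05; 0.10 is given beside it. The fit was run on simulated data with noise set below the pooled replicate spread and alike for all genes and both groups. That run does not show how the fit performs on these libraries. Log2 differences are MYC knockdown minus wild type. The 10 genes and the lists were chosen with earlier results of these data known. Named genes were the 10, MYC, and genes of the fixed lists, those without overlap first; the genes with profiles most like the enzyme with the largest change are not reported here. DHFR2 was matched through its older symbol. Of the overlaps in GENCODE release 29, exons of 6 of the 10 genes overlap a gene on the opposite strand, and 14 pseudogenes named after them held at most 0.09 FPKM. PECAM1 was not analysed here. The alternatives were the low-value filter, pseudocounts of 0.1 and 0.01, 3 scalings, protein-coding rows, no mean trend, a replicate block and each library left out.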

Additional observations from a re-analysis of the deposited data

How the results depend on the processing

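The log2 difference of each of the 9 enzyme genes tested kept its direction under all 14 alternatives, but most of these could not reverse it. The low-value filters, protein-coding rows, the replicate block and no mean trend leave the difference itself unchanged. For genes without overlap, another pseudocount or 1 library left out could not reverse it either. Only the 3 scalings could have done so for those genes. At an adjusted p of 0.05, limma called 3 of the 9 (PHGDH, PSAT1 and MTHFD2) with a mean of at least 5 FPKM, with median of ratios scaling and with protein-coding rows alone, where it called 310, 313 and 385 of all genes. With 1 library left out it called 0 to 8 of the 9 and 0 to 3413 of all genes; the larger counts came without MYC knockdown replicate 1 (6 of the 9, 3384 genes) or replicate 2 (8, 3413), where the lone knockdown library was assumed to vary like the close wild-type pair. At 0.10, 0 of the 9 and 0 genes were called with no filter on low values, and 0 to 8 of the 9 and 0 to 5359 genes with 1 library left out; all genes called were 2230 with equal column sums, 838 without the mean trend and 723 with the replicate block. The block used numbers that pair nothing in the labels (correlation of replicate differences −0.00587 over genes); with it 5 of the 9 were called at 0.10, SHMT2 added. The median was −0.46 over all 10 with no filter, where ALDH1L2 enters, and over the 9 it was −0.51 with equal column sums and −0.64 to −0.44 with 1 library left out. With equal column sums, serine synthesis, cytosolic and mitochondrial sums were 62.3%, 89.4% and 67.1% of wild type. With 1 library left out they were 56.5% to 60.2%, 82.7% to 84.6% and 61.6% to 64.0%, and the mitochondrial to cytosolic ratio 72.9% to 77.2%. The median of all genes, 0.04 as deposited, was 0.12 with equal column sums, 0.0013 with median of ratios and −0.0054 with quantile normalization. FPKM gives no counting error, which limits ALDH1L2 most.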
